A study of Bos indicus with 11 samples.

Results

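The genes described here run DNA replication and cell division, and were measured in endometrial biopsies of Nelore cows. They were taken from a list of 42 gene symbols, keeping the rows of the deposited table that carry exactly that symbol and have a mean of at least 5 normalized counts over the 11 cows. By this rule 38 of the 42 genes were found among the 15081 genes tested and the 24616 genes in the table, and all 38 passed the minimum. They divide into 12 genes of S phase and replication, 4 regulators of the step from G1 to S phase and 22 genes of mitosis. MKI67, MCM2 and TTK were not analysed here. BUB1B has only a row shared with a second symbol (LOC100851213; BUB1B), which was not counted as a member.

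The biopsies were collected on day 6 after artificial insemination (AI) from healthy multiparous cows, in the horn opposite to the ovary that carried the corpus luteum. Cows were placed into their group afterwards, by the diagnosis on day 30, as pregnant (P, 6 cows) or non-pregnant (NP, 5 cows). All cows of both groups had been synchronized and inseminated at detected estrus, and each cow gave 1 library. A biopsy holds epithelium, stroma, vessels and sometimes muscle of the uterine wall, so each value is a mixture over cell types.

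A dividing cell first passes from G1 into S phase, when cyclin D and cyclin E kinases release the E2F factors that switch on the replication genes. In S phase the MCM helicase is loaded and activated at origins, PCNA holds the polymerases on the DNA, and ribonucleotide reductase and thymidylate synthase supply the nucleotides. In G2 and mitosis FOXM1 and cyclin B with CDK1 drive a second wave of genes for the spindle, the kinetochore and the separation of the daughter cells. In the uterus, proliferation of the glandular and luminal epithelium changes with the ovarian steroids through the cycle.

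Between 9290949 and 13569085 reads were counted on genes per cow, so that 1 read was worth 0.784 to 1.14 normalized counts. Cow P617 stood apart. Its label says pregnant, a sequencing record of the study names it as non-pregnant, and it was kept as P, with the other reading given where it matters. EPCAM, the epithelial cell adhesion molecule, was at 269 normalized counts in P617, at 2110.0 in P1541 and between 2385 and 4719 in the other cows. The row of the smooth muscle actins (ACTG2; ACTA2) had 215006 in P617, 165234 in P1541 and 89878 in NP638, against 13869 to 72206 in the other cows. Over all 13 epithelial markers found, the summed level ran from 2850 in P617 to 30875 in P1631 among the P cows and from 14026 to 20324 among the NP cows. The summed level of the 8 smooth muscle rows ran from 79193 to 639706 in P cows and from 38920 to 265139 in NP cows. For the 10 stromal markers the lowest sum was 129960 in P1631 and the highest 374972 in P1541, with 267473 to 366079 in NP cows. The sums of the 9 endothelial markers were 4495 to 14729 in P cows and 8873 to 16053 in NP cows, and those of the 11 immune cell markers 546 to 1313 and 889 to 1865. No marker row of the epithelium, stroma, endothelium, immune cells or smooth muscle was at 0 in any cow. In such bulk tissue, fewer cells of a type and less RNA per cell cannot be told apart.

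The genes of mitosis varied widely from cow to cow and mostly in the same order. Cow P1631 had the highest value in 20 of the 22 genes, and cow P617 the lowest value in 18 of the 22. Over all genes tested, P1631 was highest in 9.75% and P617 lowest in 27.8%. TOP2A, the topoisomerase that untangles the replicated chromosomes, ran from 30.5 to 855 normalized counts in the P cows with a median of 214. In the NP cows TOP2A was at 137, 167, 274, 373 and 462. The NP cows thus lay inside the range of the P cows, and 28.0-fold separated P1631 from P617.

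CDK1, the kinase that starts mitosis, ran from 9.04 to 196 in the P cows with a median of 61.7. In the NP cows CDK1 was at 56.8, 58.7, 86.3, 111 and 125. FOXM1, the transcription factor of the G2 and mitosis genes, was at 0 reads in P617, which allows up to 3 reads or 3.39 normalized counts, and reached 57.1 in P1631 with a P median of 6.40. The NP cows had 3.03, 4.06, 9.68, 12.2 and 14.1 normalized counts of FOXM1, so this gene rested on few reads in most cows. In all 3 of these genes P617 was the lowest and P1631 the highest of the 11 cows.

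The other mitosis genes are given by their role. Of the cyclins, CCNA2, which acts in S phase and G2, ran from 10.6 in P1541 to 119 in P1631, and CCNB2 from 2.26 in P617 to 58.1 in NP2810. Of the chromosomal passenger complex, which corrects faulty spindle attachments, AURKB ran from 15.8 to 252 and BIRC5, survivin, from 28.2 to 419, both from P617 to P1631. AURKA, the kinase of the spindle poles, had a narrower range, from 24.9 in P904 to 81.5 in NP2810.

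Of the kinetochore genes, NDC80, which binds microtubules, was at 1.13 normalized counts or 1 read in P617 and at 130.2 in P1631. CENPE, a motor that moves chromosomes to the spindle equator, ran from 11.3 to 161 between the same cows. Of the genes that start anaphase, CDC20, the activator of the anaphase-promoting complex, ran from 13.6 to 249 and ESPL1 from 7.91 to 196, again from P617 to P1631. Both were also low in P1541, at 19.4 and 11.6.

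Of the spindle motors, KIF11, which pushes the poles apart, ran from 15.8 to 203. KIF20A and KIF23, which act in cytokinesis, ran from 10.2 to 314 and from 6.78 to 154. The spindle proteins TPX2, NUSAP1 and PRC1 had the narrower ranges of this set, with 5.18-fold, 5.52-fold and 5.39-fold between P1631 and P617. All 6 of these genes were lowest in P617 and highest in P1631.

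Spread was the common feature of the mitosis genes. The highest cow exceeded the lowest by more than 10-fold in 16 of the 22, of which FOXM1, NDC80 and CCNB2 had 0, 1 and 2 reads in P617. Their median SD of log2 values over the 11 cows was 1.13, against 0.42 over all genes tested. Without P617 these medians were 0.91 and 0.36. The smallest spread was in PLK1, polo-like kinase 1, with an SD of 0.40. PLK1 ran from 184 to 363 normalized counts in the P cows with a median of 242, and was at 156, 165, 204, 205 and 334 in the NP cows. Unlike most genes of the class, PLK1 was not low in P617, where it had 291. BUB1, a kinase of the spindle checkpoint, also was not lowest in P617, at 50.8 there against 15.2 in NP638 and 138 in P1631. The shared row LOC100851213; BUB1B ran from 9.04 in P617 to 198 in P1631.

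**Figure D1:**
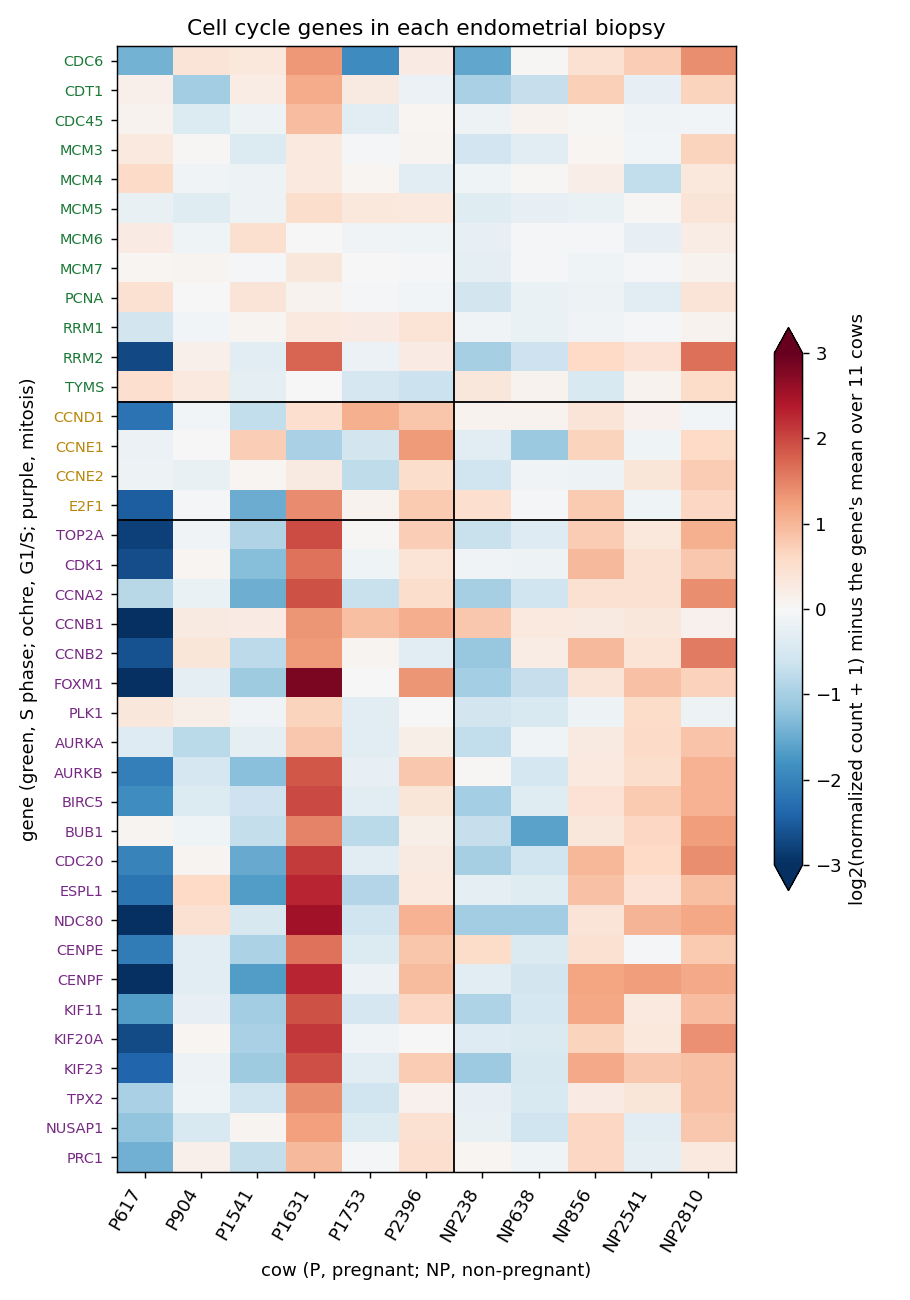
Heat map of the 38 genes (rows, in the order S phase, G1/S and mitosis) in the 11 cows (columns, P cows left of the line). Colour is log2(normalized count + 1) minus the mean of the gene, on a scale that saturates at 3. Most mitosis rows are darkest blue in P617 and darkest red in P1631, while most S phase rows are pale.

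The S phase genes had a narrower range than the mitosis genes. The median SD of log2 values of the S phase genes was 0.35, against 0.42 over all genes tested. Without P617 these medians were 0.35 and 0.36. Only CDC6, with 3 reads in its lowest cow, and RRM2 differed more than 10-fold between the highest and the lowest cow. MCM7, a subunit of the replicative helicase, had the smallest spread of the class, with an SD of 0.15. It ran from 1554 to 2024 normalized counts in the P cows, P1541 being the lowest and P1631 the highest of them, and was at 1318, 1479.8, 1568, 1571 and 1739 in the NP cows. MCM5, another subunit, ran from 299 to 557 in the P cows with a median of 410.4, and was at 301, 323, 334, 396 and 504 in the NP cows.

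PCNA, the sliding clamp of the polymerases, ran from 1009.9 to 1471 in the P cows with a median of 1107. In the NP cows PCNA was at 726, 852, 927, 965 and 1398. All 5 NP cows except NP2810 were thus below every P cow, but the highest P cow was P617, the cow that was lowest in most mitosis genes. MCM4 was also highest in P617, with 114 normalized counts, while the other 10 cows had 44.7 to 94.8. TYMS, thymidylate synthase, ran from 336 in P2396 to 766 in NP2810, and P617 was among its higher cows with 738.

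RRM2, the small subunit of ribonucleotide reductase, did not share the narrow range of the helicase genes. It had the largest spread of the class, with an SD of 1.24, and ran from 10.2 in P617 to 243 in P1631 with a P median of 71.5. The NP cows had 35.4, 46.7, 98.0, 109.7 and 227 normalized counts of RRM2. Its partner RRM1, the large subunit, ran only from 1214 in P617 to 2377 in P2396. CDC6, which helps to load the helicase at origins, ran from 3.02 to 35.4 in the P cows with a median of 17.0, and was at 4.05, 14.2, 19.4, 23.5 and 37.7 in the NP cows. The remaining S phase genes CDT1, CDC45, MCM3 and MCM6 differed between the highest and the lowest cow by 4.64-fold, 2.55-fold, 2.38-fold and 1.66-fold.

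The 4 regulators of the G1 to S step differed among themselves. E2F1, a transcription factor of the replication genes, had the largest spread, with an SD of 1.11, and followed the mitosis genes. It ran from 3.39 in P617 to 64.0 in P1631 with a P median of 24.1, and was at 21.2, 22.3, 33.4, 36.7 and 40.9 in the NP cows. CCND1, cyclin D1, ran from 53.1 in P617 to 526 in P1753 with a P median of 295, and was at 235, 266, 266, 271 and 324 in the NP cows. CCND1 was therefore nearly level among the NP cows and spread over 9.92-fold among the P cows, with P617 as the lowest. The other P cows ran from 148 to 526. With P617 read as NP, the NP cows would run from 53.1 to 324 and would not be level.

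The cyclin E genes showed neither pattern. CCNE1 ran from 3.43 to 20.1 in the P cows with a median of 7.22 and was at 3.04, 6.07, 7.06, 12.2 and 12.9 in the NP cows, which is a handful of reads per cow. CCNE2 had the smallest spread of the 4, with an SD of 0.46. It ran from 38.3 to 94.5 in the P cows with a median of 63.2, and was at 42.5, 59.1, 60.9, 84.7 and 111 in the NP cows.

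Across cows the mitosis genes varied together. The median Pearson's r over their 231 pairs was 0.86, and 229 of the pairs were above 0. Over the 66 pairs of S phase genes the median was 0.33, with a range from -0.61 to 0.89. Between S phase and mitosis genes it was 0.39 over 264 pairs. Without P617 and P1541 these medians were 0.84, 0.51 and 0.61. All pairs share the same 11 libraries and the same scaling, and these values are descriptions. RRM2 was the S phase gene most like the mitosis genes, with a median r of 0.90 with them, whereas PCNA had -0.17, TYMS -0.20 and MCM6 -0.31. Without the same 2 cows the medians were 0.88 for RRM2, 0.53 for PCNA, -0.02 for TYMS and 0.43 for MCM6.

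The comparison of P with NP cows asked whether the day 6 endometrium differed between cows found pregnant and cows found non-pregnant on day 30. None of the 38 genes differed by more than the spread among cows by the tests run. Of the 38 genes, 0 passed an adjusted p-value of 0.1 in limma, where 0 of 15081 genes tested passed (0%), and 0 had an unadjusted p-value under 0.05, against 1182 genes or 7.84% of all genes tested. The count tests of edgeR and DESeq2 on the recovered reads also gave 0 of the 38 at either threshold, while DESeq2 called 201 of all genes tested. In 0 of the 38 did the groups fail to overlap, against 1.09% of all genes tested. Log2 fold changes are given as NP over P on the log2(normalized count + 1) scale, which understates changes of genes with few reads.

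By the sign of the limma estimate alone, 26 of the 38 were higher in NP cows, against 50.2% of all genes tested, with a median log2 fold change of 0.25 against 0.00. In edgeR and in DESeq2 it was 21 of the 38, with medians of 0.03 and 0.02, against -0.03 and -0.04 over all genes tested. In limma the classes leaned in opposite directions, with 20 of 22 mitosis genes above 0 (median 0.37) and 9 of 12 S phase genes below 0 (median -0.13). The 4 G1/S genes had a median of 0.16, and 3 of them were higher in NP cows. The lean of the mitosis genes depended on the test and on single cows. Their median was 0.06 in edgeR and 0.05 in DESeq2 with all 11 cows, and 6 of the 22 had a higher mean normalized count in P cows, among them TOP2A with 300.0 against 283. In limma the median was 0.06 without P617, 0.17 without NP2810, 0.79 without P1631 and 0.47 without both P617 and P1631, and it turned to -0.28 when P617 was read as NP. With EPCAM as a covariate it was 0.08, and with the muscle actin row as a covariate it was -0.44. Markers of other cell types also leaned by group in limma, and 0 of them passed the adjusted threshold. The muscle actin row had a log2 fold change of -1.37 ± 0.64 (SE; limma, adjusted p = 0.650), and all 8 smooth muscle rows were lower in NP cows (median -1.36). All 9 endothelial markers (median 0.74) and all 11 immune cell markers (median 0.61) were higher in NP cows, 8 and 5 of them at an unadjusted p-value under 0.05. The 10 stromal markers were all higher in NP cows too (median 0.66), 4 of them under 0.05 and 3 with no overlap between the groups. Of the 13 epithelial markers, 11 were higher in NP cows (median 0.34), and 1 of the 2 higher in P cows was under 0.05. The part of these cell types in the values of the cell cycle genes was not tested beyond the EPCAM and muscle actin covariates. The S phase median was between -0.20 and -0.04 whenever 1 cow was left out, and 0.06 without both P617 and P1631.

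PCNA had the smallest p-value of the 38 genes. It was at 1189 ± 197 normalized counts for P (SD, n = 6) and 973 ± 254 for NP (SD, n = 5). Its log2 fold change was -0.31 ± 0.17 (SE; limma, adjusted p = 0.730). When 1 cow was left out it ranged from -0.45 without NP2810 (limma, adjusted p = 0.544, unadjusted p under 0.05) to -0.21 without NP238. With P617, its highest cow, read as NP it was -0.14. MCM7 had the next smallest, with 1688 ± 174 for P (SD, n = 6) and 1535 ± 153 for NP (SD, n = 5). The log2 fold change of MCM7 was -0.14 ± 0.10 (SE; limma, adjusted p = 0.799). PLK1 came after these, at 256 ± 64.1 for P (SD, n = 6) and 213 ± 71.3 for NP (SD, n = 5). PLK1 had a log2 fold change of -0.28 ± 0.23 (SE; limma, adjusted p = 0.801). When 1 cow was left out PLK1 ranged from -0.46 without NP2541 (limma, adjusted p = 0.758, unadjusted p under 0.05) to -0.18 without P1631. It was at -0.16 with P617 read as NP and at -0.09 without P617 and P1631. All 3 were lower in NP cows in every fit that left out 1 cow, but they were picked by p-value from these same cows. With these 3 included, the sign held in every such fit for 7 of the 12 S phase genes, 1 of the 4 G1/S genes and 13 of the 22 mitosis genes.

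The largest log2 fold change was that of CENPF, a kinetochore protein, at 1.00 ± 0.90 (SE; limma, adjusted p = 0.825). CENPF had 6.78 normalized counts in P617 and 522 in P1631, and its log2 fold change was 0.13 without P617, P1541 and NP638. CDK1 had 0.73 ± 0.63, TOP2A 0.40 ± 0.70 and FOXM1 0.09 ± 0.89 (log2 fold change ± SE), with adjusted p-values in limma of 0.821, 0.910 and 0.985. For TOP2A and FOXM1 the standard error exceeded the log2 fold change, and a difference of that size was not detectable with these cows.

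**Figure D2:**
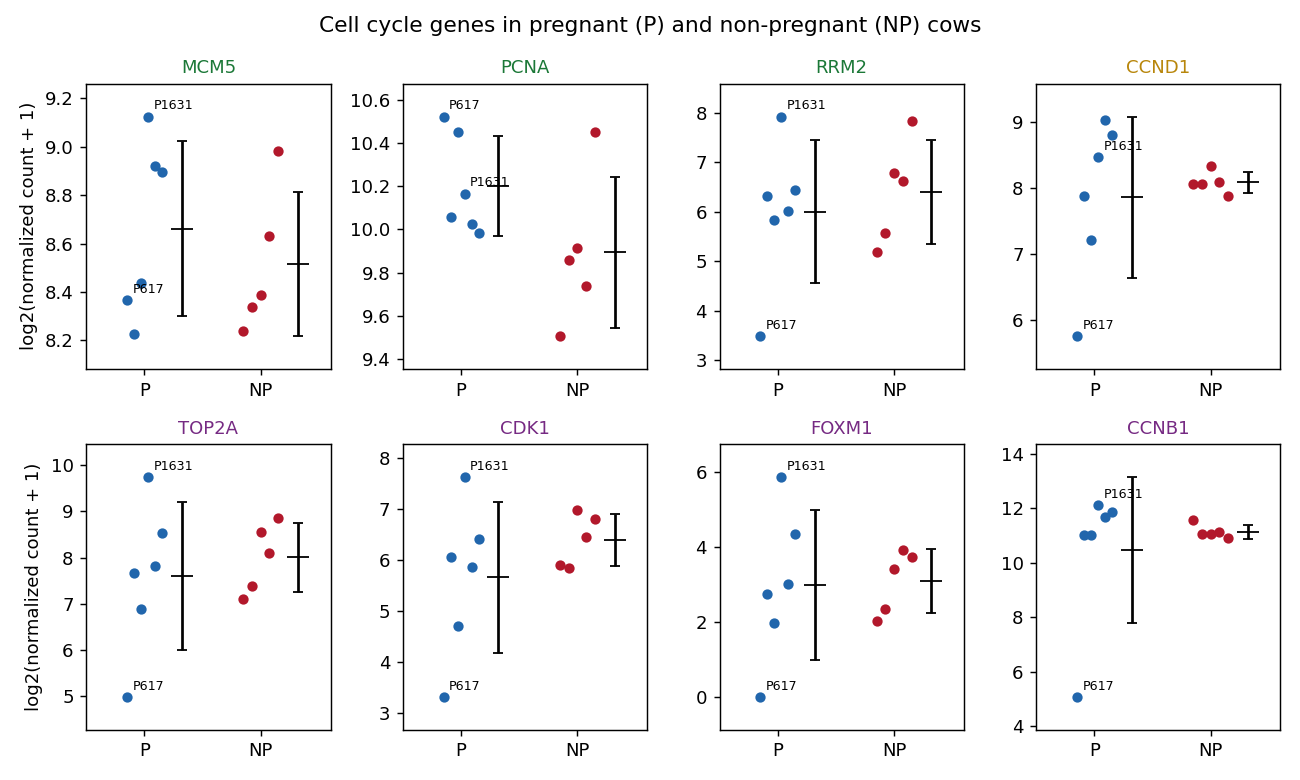
Values of 8 genes in each cow (points; blue, P; red, NP) as log2(normalized count + 1), with the mean and SD of each group beside them (black). The axes differ between panels. The groups overlap in all 8 genes, and P617 and P1631 mark the ends of the P range in RRM2, TOP2A, CDK1, FOXM1 and CCNB1.

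**Figure D3:**
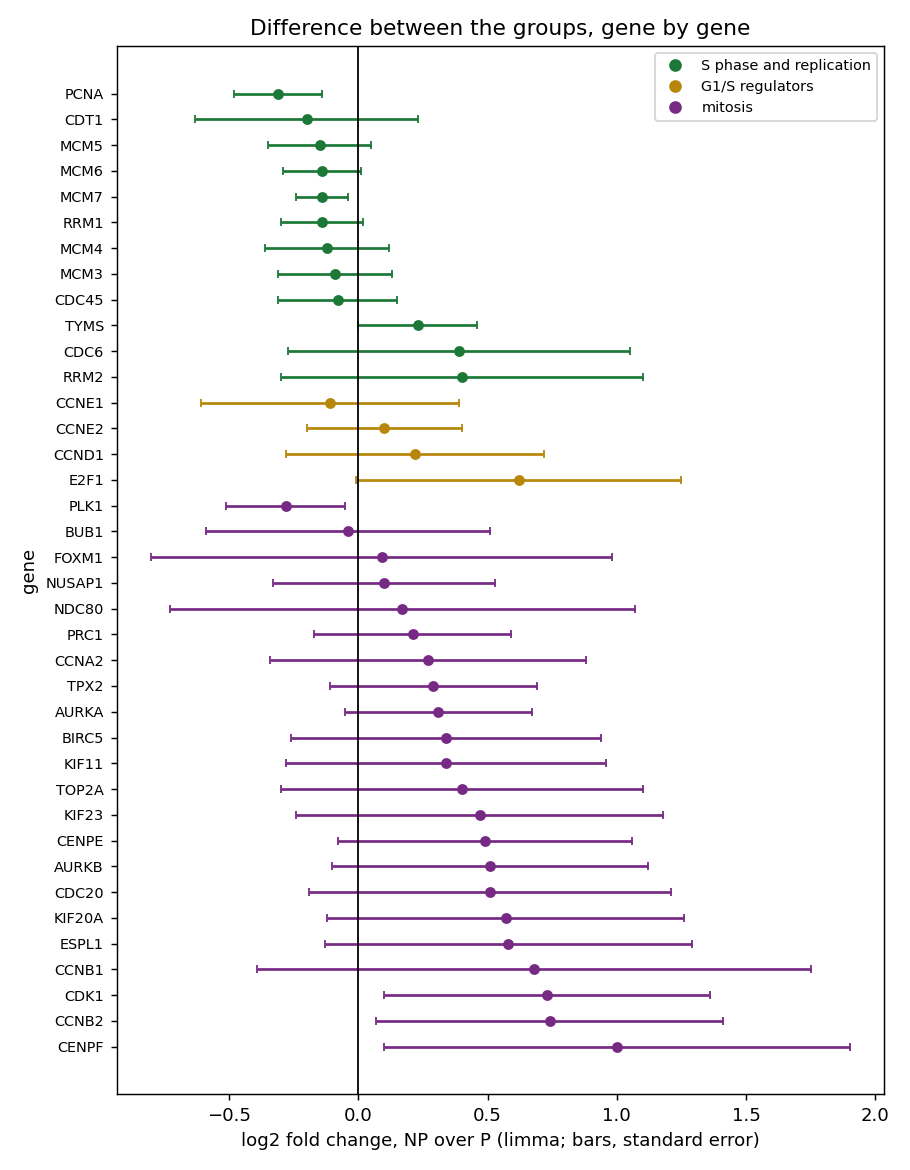
Log2 fold change, NP over P, of the 38 genes with the standard error from limma (bars), sorted within each class. Of the 12 S phase genes 9 lie below 0 and of the 22 mitosis genes 20 lie above 0, and none passed the test.

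Co-variation with EPCAM asked whether the cell cycle genes followed the epithelial content of the biopsy. Over all 11 cows, 21 of the 38 genes (55.3%) had a positive r past an adjusted p-value of 0.1 (two-sided permutation test over 15080 genes), against 19.4% of all genes tested. A negative r past it was found for 0 of the 38, against 2695 of the 15080 genes. Of these 21, 17 were mitosis genes, 2 were G1/S genes (CCND1 and E2F1) and 2 were S phase genes (RRM1 and RRM2). The median r was 0.78 for the 22 mitosis genes, 0.53 for the 4 G1/S genes and 0.02 for the 12 S phase genes, against 0.02 over all genes tested. TOP2A had an r of 0.87 (permutation p = 2.10e-04, adjusted p = 0.0127) and a Spearman's rho of 0.80 (permutation p = 0.00439, adjusted p = 0.141).

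These adjusted calls depended on cow P617, the cow with the least EPCAM. Without P617 alone, 0 of the 38 genes passed the adjusted threshold, with a smallest adjusted p-value of 0.155 among them by permutation. The adjustment runs over all genes tested, and the share of them that passed in those 10 cows is not given here. In the 10 cows 22 of the 38 still had a positive r at an unadjusted permutation p under 0.05, against 7.29% of all genes tested. The median r of the 38 was 0.68 in the 10 cows and 0.68 in all 11. By rank over all 11 cows, 2 of the 38 genes passed, against 0.564% of all genes tested. They were FOXM1 with a rho of 0.93 (permutation p = 1.70e-04, adjusted p = 0.0819) and AURKB, the kinase of the chromosomal passenger complex, with a rho of 0.89 (permutation p = 5.40e-04, adjusted p = 0.0938). The r was taken again without P617 and P1541, the 2 cows farthest from the median of EPCAM. In these 9 cows 0 of all 15080 genes passed the adjusted threshold by the exact permutation test, while 36 of the 38 genes still had an r above 0, against 50.4% of all genes tested. Their median r was 0.61, against 0.01 over all genes tested. The mitosis genes varied together in these 9 cows (median pairwise r 0.84), so counts of genes are not counts of separate events.

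At an unadjusted exact permutation p under 0.05 in these 9 cows, a positive r was found for 15 of the 38 genes (39.5%), against 4.38% of all genes tested. Of these, 11 were mitosis genes and 4 were the S phase genes MCM5, MCM7, RRM1 and RRM2. The highest were FOXM1 with an r of 0.85 (exact permutation p = 0.00449, adjusted p = 0.482) and NDC80, a kinetochore protein, with an r of 0.85 (exact permutation p = 0.00408, adjusted p = 0.482). The count depended on P1631, the cow with the most EPCAM. When P1631 was left out too, a choice made after its values were seen, 3 of those 15 genes (RRM1, FOXM1 and NDC80) and 0 others were at an unadjusted exact permutation p under 0.05, against 2.94% of all genes tested, and the median r was 0.39 with 34 genes above 0. Without P617, P1541 and NP638 it was 7 genes, against 3.89%, and the median r was 0.57.

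The S phase genes changed most when P617 and P1541 were left out. PCNA went from an r of -0.47 with EPCAM in 11 cows (permutation p = 0.160, adjusted p = 0.272) to 0.44 in 9 cows (exact permutation p = 0.234). MCM7 went from 0.07 to 0.69 and MCM3 from -0.09 to 0.56. In the mitosis class PLK1 went from -0.10 to 0.79 and BUB1 from 0.19 to 0.77. RRM1 went from 0.79 to 0.77, but was at 0.59 without P617 alone. TYMS and MCM4 were the only 2 of the 38 genes below 0 in the 9 cows, with -0.11 and -0.08. CCND1 moved the other way, from 0.89 to 0.33, so that its relation with EPCAM rested on those 2 cows.

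**Figure D4:**
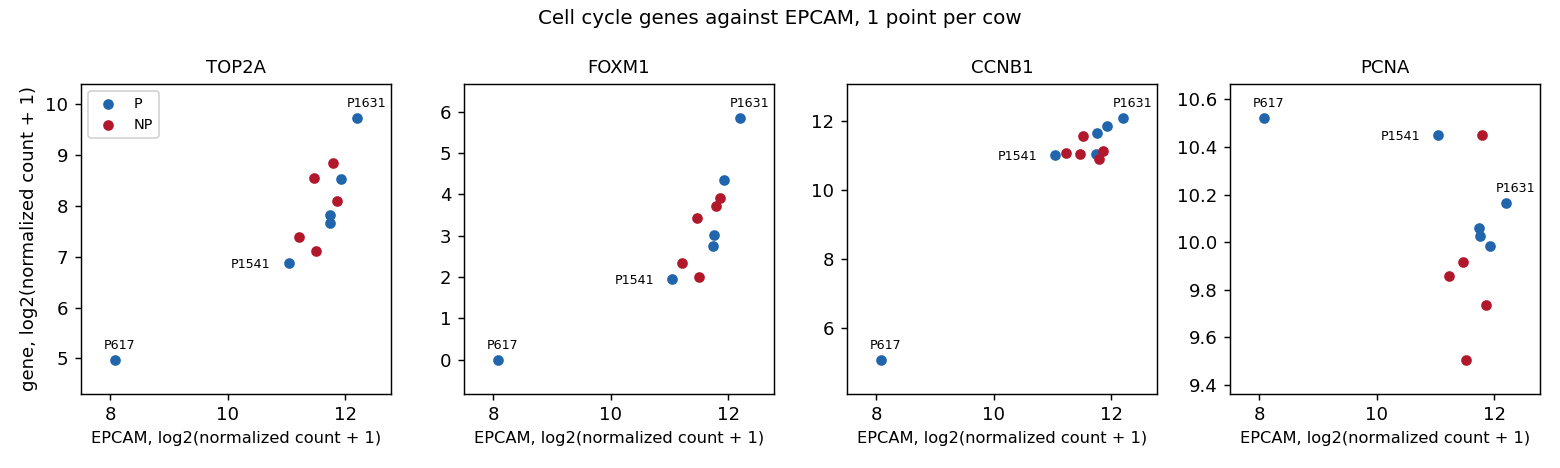
TOP2A, FOXM1, CCNB1 and PCNA against EPCAM, both as log2(normalized count + 1), with 1 point per cow (blue, P; red, NP). P617 lies far to the left in each panel, low in TOP2A, FOXM1 and CCNB1 and highest in PCNA, and P1631 is at the upper right in TOP2A, FOXM1 and CCNB1.

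**Figure D5:**
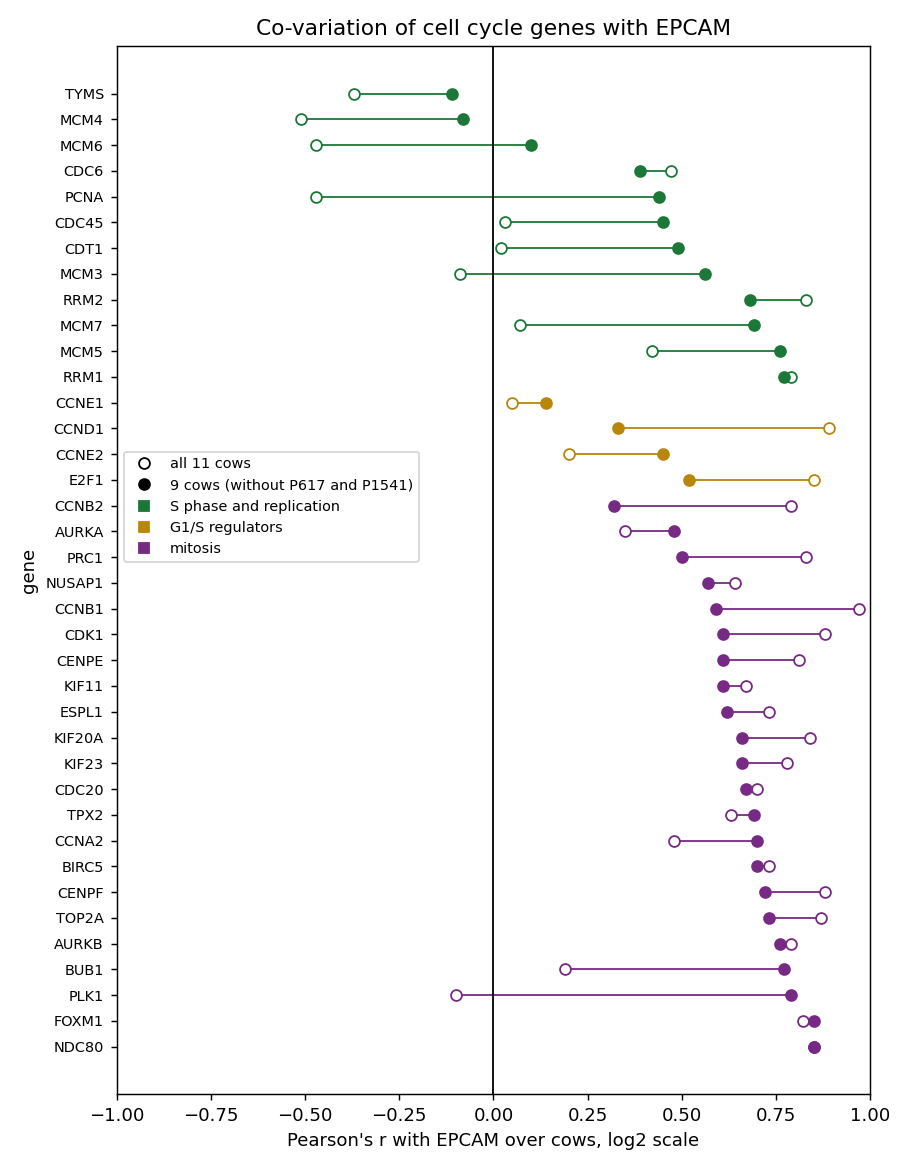
Pearson's r of each of the 38 genes with EPCAM over all 11 cows (open circles) and over the 9 cows without P617 and P1541 (filled circles), by class. In the 9 cows 36 of 38 genes lie above 0, and PCNA, MCM6, MCM3 and PLK1 cross from below 0 to above it.

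Expressed per 1000 normalized counts of EPCAM, TOP2A was 95.0 ± 47.9 for P (SD, n = 6) and 90.6 ± 38.4 for NP (SD, n = 5). P617, the lowest cow in TOP2A itself, was at 113 on this ratio, between 46.9 in NP238 and 181 in P1631. P1631 thus had the most TOP2A also relative to EPCAM, and the most FOXM1, at 12.1. On the same ratio CDK1 was highest in NP856, at 43.9 against 41.6 in P1631, and RRM2 in NP2810, at 64.4 against 51.5. In P617 CDK1 and RRM2 were at 33.6 and 37.8, inside the range of the other cows. CCNB1 was at 122 in P617, against 545 to 1048 in the other cows, and FOXM1 was at 0. PCNA per 1000 EPCAM counts was 5471 in P617 and between 229 and 663 in the other cows, so that PCNA did not follow EPCAM down in that cow. MCM5 was at 1223 in P617 and between 87.7 and 164 in the other cows. These ratios are descriptions, with no test.

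With the muscle actin row (ACTG2; ACTA2), 7 of the 38 genes (18.4%) had a negative r past an adjusted p-value of 0.1 over 11 cows, against 8.18% of all genes tested. A positive r past it was found for 0 of the 38, against 1560 of the 15080 genes. The 7 were 6 mitosis genes and E2F1. E2F1 had an r of -0.76 (permutation p = 0.00460, adjusted p = 0.0487) with a rho of -0.63 (permutation p = 0.0443, adjusted p = 0.251). CDK1 had an r of -0.75 (permutation p = 0.00501, adjusted p = 0.0511) with a rho of -0.74 (permutation p = 0.0129, adjusted p = 0.145). By rank 1 of the 38 genes passed, against 2.10% of all genes tested. It was ESPL1, the separase that cuts cohesin, with a rho of -0.79 (permutation p = 0.00576, adjusted p = 0.0966).

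Without P617 and P1541, which were also the 2 cows farthest from the median of the muscle row, 0 of the 38 genes passed and 0 had a negative r at an unadjusted exact permutation p under 0.05, against 4.30% of all genes tested. The median r went from -0.52 to -0.26. Leaving out any 1 of P617, P1541 and NP856 also took the count from 7 to 0, and leaving out NP238 took it to 14. The adjustment runs over all genes tested, and the shares of them that passed in these sets are not given here. These counts therefore do not describe the 38 genes alone. For CDK1 the r itself was -0.73 without NP856, -0.71 without P1541 and -0.62 without P617, and for E2F1 it was -0.74, -0.70 and -0.63. The EPCAM and muscle values of P617 and P1541 moved together, and their separate parts in the result were not tested.

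CCNB1, the cyclin that activates CDK1 at the entry into mitosis, was described on its own. It had the largest spread of the 38 genes, with an SD of 1.93, and most of it lay between P617 and the other cows. Without P617 the SD was 0.42, against a median of 0.36 over all genes tested. CCNB1 was at 32.8 normalized counts in P617 and at most 4388 in the P cows, with a P median of 2669. In the NP cows it was at 1922, 2106, 2132, 2224 and 3055. The 10 cows other than P617 lay between 1922 and 4388, while CCNB2, the second cyclin B, ran from 8.09 to 58.1 in the same 10 cows.

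Across cows CCNB1 was compared with EPCAM and with the mitosis genes. Its r with EPCAM was 0.97 over 11 cows (permutation p = 0.00241, adjusted p = 0.0278), with a rho of 0.69 (permutation p = 0.0226, adjusted p = 0.207), and 0.59 in the 9 cows (exact permutation p = 0.0964). Its median r was 0.93 with the 13 epithelial markers and 0.67 with the other 21 mitosis genes, and 0.59 and 0.23 in the 9 cows. For CDK1 the same medians with mitosis genes were 0.91 and 0.92. CCNB1 was singled out after its values were seen, and whether its row holds reads of another gene was not tested. Its log2 fold change was 0.68 ± 1.07 (SE; limma, adjusted p = 0.896) and changed sign to -0.40 without P617.

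Other genes of the same processes, from lists that hold none of the 38, were read from the same fits. Of 54 further mitosis genes tested, 0 had an unadjusted p-value under 0.05 between P and NP cows in limma. Their median log2 fold change was 0.04. P1631 was the highest cow in 40 of the 54 and P617 the lowest in 24, against 9.75% and 27.8% of all genes tested. The median r of these 54 genes with EPCAM was 0.47 over 11 cows and 0.59 over 9 cows. For the 38 further replication genes tested it was -0.09 and 0.27. Over 11 cows 5 of those 38 had a positive and 9 a negative r past the adjusted threshold. Of 38 further replication genes, 1 was higher and 2 were lower in NP cows at an unadjusted p-value under 0.05, which is 7.89% against the 7.84% of all genes tested, and 0 passed the adjusted threshold. These 3 are named by rule, and their share is that of the background. TIMELESS, a protein of the replication fork, was at 85.2 ± 47.4 normalized counts for NP (SD, n = 5) and 37.8 ± 6.80 for P (SD, n = 6), with no overlap between the groups. Its log2 fold change was 1.01 ± 0.33 (SE; limma, adjusted p = 0.451). In single NP cows TIMELESS was at 47.0, 54.0, 54.6, 118 and 153, against 24.9 to 42.9 in the P cows.

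RFC3, a subunit of the clamp loader that places PCNA on DNA, was at 156, 231, 258, 259.7 and 285 in the NP cows and at 272 to 336 in the P cows. RFC3 had a log2 fold change of -0.43 ± 0.16 (SE; limma, adjusted p = 0.503). GMNN, geminin, which holds CDT1 inactive after origins have fired, was at 236 ± 34.2 for NP (SD, n = 5) and 331 ± 97.3 for P (SD, n = 6). For GMNN it was -0.45 ± 0.20 (SE; limma, adjusted p = 0.608). Of 22 cell cycle brakes and of 14 partners in G1, 0 had an unadjusted p-value under 0.05, and their median log2 fold changes were -0.05 and -0.08. Their median r with EPCAM over 11 cows was -0.13 and 0.16.

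MKI67 was to serve as the reference for genes of the same pattern, and TOP2A took its place after the table was seen. The 10 genes outside all lists with the highest r with TOP2A over the 11 cows were ARHGAP11A (0.97), CEP72 (0.96), LOC786089 (0.96), SERINC2 (0.96), PEX11G (0.95), KIAA0101 (0.95), DAK (0.94), SLC25A39 (0.94), SPAG5 (0.94) and MAPKAPK3 (0.94). All 10 were compared over the same 11 cows, in which P617 and P1631 set most of the range.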

How the data were processed

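RNA-Seq was analysed in endometrial biopsies of 11 cows (P, n = 6; NP, n = 5), with 1 library per cow. Paired-end reads were cleaned by the authors with Seqyclean and aligned with Bowtie2 2.1.0 to the masked Bos taurus UMD3.1 assembly, with gene counts from HTSeq 0.5.4p2 scaled by DESeq2 1.12.1. Rows carry Ensembl identifiers. The Ensembl release and the use of strand are not given in the sources used here, so overlapping genes and near-identical copies are uncertain. The deposited table holds the normalized count, a signal that is never below 0, of each gene in each cow. Divided by the worth of 1 read in that cow, 100% of the values were whole within 0.01 reads, and the recovered reads were 9290949 to 13569085 per cow. Counting error adds to the spread of genes near the minimum mean of 5.

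Normalized counts were compared as log2(value + 1) with limma 3.58.1 (eBayes with a trend, R 4.3.3) on 15081 genes, with the Benjamini-Hochberg adjustment over all of them at 0.1. Correlations with 2 markers, EPCAM and the row ACTG2; ACTA2, were tested for every gene with two-sided permutation tests (100000 resamples, smallest p 1e-05; exact for fewer than 10 cows) and adjusted over 15080 genes. Alternatives were edgeR 4.0.16, DESeq2 1.42.0 and limma-voom on the recovered reads, other scalings, filters, pseudocounts and covariates, and leaving out cows. The scripts were tested on simulated data.

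The genes and lists were chosen with earlier results of these data known. Values by cow were given for a fixed set of well known genes, the 3 with the smallest p, and the ones with the largest and smallest spread in each class. From the other lists, genes with p under 0.05 were named. The marker genes of 5 tissues and cell types were used as descriptions. No sequences or coordinates are given, because the reference used for names is of another assembly.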

Additional observations from a re-analysis of the deposited data

Results flagged for a closer look

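A value was singled out where the highest or lowest cow of a group lay far from the nearest other cow, by Dixon's criterion at 95%. Values from a normal distribution meet it in about 1 in 20 groups, a rate that need not hold for normalized counts with a wide spread. Of 80 groups of values examined (the 38 genes, EPCAM and the muscle actin row, each in P and in NP cows), 15 met it, and 13 of the 15 were P1631 among the P cows. The genes vary together, so these are not 13 separate events.

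In P1631 the S phase genes were CDC45 at 223 normalized counts, MCM7 at 2024 and RRM2 at 243. The mitosis genes were CCNA2 at 119, FOXM1 at 57.1, BIRC5 at 419, BUB1 at 138, CDC20 at 249, ESPL1 at 196, NDC80 at 130.2, KIF11 at 203, KIF20A at 314 and TPX2 at 369, each the highest of the P cows. P1631 also had the most EPCAM, at 4719, and the part of that in these values was not tested. Among the NP cows, CCNB1 was high in NP238, at 3055, and PLK1 was high in NP2541, at 334. The criterion was applied to the normalized counts, where low values lie closer together than on the log2 scale and a low cow is less easily singled out. P617 did not meet it in any gene.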

How the results depend on the processing

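Across the 25 other settings of the group comparison, the number of the 38 genes past the adjusted threshold was 0 in each. With 0 among all genes tested under limma, EPCAM as a covariate gave 48, DESeq2 without a prior gave 201, and leaving out 1 cow gave 0 to 171, the 171 without P904. The count of the 38 at an unadjusted p under 0.05 was 1 with EPCAM as a covariate and 1 with P617 read as NP, and 0 to 1 when 1 cow was left out. That gene was RRM1 with the covariate, with P617 as NP and without P617, PLK1 without NP2541 and PCNA without NP2810.

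None of the following log2 fold changes passed the test in any setting, but their direction turned. For TOP2A, RRM2, CCND1 and CCNB1 in that order, the values were -0.03, -0.01, -0.09 and -0.07 with EPCAM as a covariate, -0.64, -0.62, -0.33 and -0.56 with ACTG2; ACTA2 as a covariate, -0.63, -0.59, -0.59 and -1.41 with P617 as NP, and -0.29, -0.07, -0.46 and -0.50 without P617, P1541 and NP638. Leaving out 1 cow gave -0.13 to 0.82, -0.11 to 0.78, -0.20 to 0.46 and -0.40 to 1.01. For TOP2A, CCND1 and CCNB1 edgeR gave -0.07, -0.10 and -0.17 and DESeq2 gave -0.09, -0.11 and -0.18. Without P617 and P1631, chosen after the data were seen, CCND1 was at -0.15 and CCNB1 at -0.25. The cause was not tested, apart from the cows left out.

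Of the 21 genes past the adjusted threshold with EPCAM, Spearman's rho left 2, and 0 passed without the 2 farthest cows, 0 without P617, P1541 and NP638 and 0 without P617, P1541 and P1631. Leaving out 1 cow gave 0 to 22, the 0 without P617. With the muscle row 7 became 1 by rank and 0 in each of the same sets of cows, and leaving out 1 cow gave 0 to 14. The shares of all genes tested that passed when 1 cow was left out are not given here. TOP2A changed its r with the muscle row from -0.63 to 0.03 without P617, P1541 and NP638. Genes with a few reads per cow, such as FOXM1, CCNE1 and CDC6, also carry counting error. No paired analysis was possible because the groups share no replicate numbers.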
